A study of Arabidopsis thaliana with 27 samples.

Results

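H3K27me3, the trimethylated form of lysine 27 of histone H3, was compared between seedlings of the ref6-1 mutant and of wild type (WT) of Arabidopsis thaliana. The comparison rests on every H3K27me3 sample whose label gives one of these genotypes, which is 4 of the 27 samples of the study, with 2 libraries of ref6-1 and 2 of WT. All were made from whole seedlings that were 14 days old, by chromatin immunoprecipitation with an antibody against H3K27me3 and sequencing. Seedlings of the brm-1 ref6-1 double mutant and of the brm-1 single mutant, 2 H3K27me3 libraries each, share no library with this comparison and were used as a second pair of groups that also differ in ref6-1. The mutants are written ref6, brm ref6 and brm from here on. Peaks of REF6-GFP and BRM-GFP, both tagged proteins pulled down with an antibody against GFP, served as maps of where the proteins sit. The labels of the GFP libraries used here name neither the promoter nor the insertion of the tagged gene.

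Polycomb group proteins place H3K27me3 on genes that are kept silent, among them floral and seed genes in young seedlings. REF6 (RELATIVE OF EARLY FLOWERING 6) is a Jumonji-domain demethylase that removes methyl groups from this lysine and reaches its sites through zinc fingers that bind DNA. BRM (BRAHMA) drives chromatin remodelling of the SWI/SNF type with the energy of ATP and is known to counteract Polycomb at many genes.

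The unit of the data is the peak, a stretch where the authors' caller found more immunoprecipitated reads than background, with a score of −10 times log10 of its p-value. The lists carry no read depth, so their precision in reads is unknown. Replicate 1 of ref6 held 11925 peaks over 5.31 Mb (median width 289 bp) and replicate 2 of ref6 held 5582 peaks over 11.5 Mb (median width 1575 bp), against 11132 peaks over 7.81 Mb (414 bp) and 11634 peaks over 6.99 Mb (350 bp) in the WT libraries. Replicate 2 of ref6 thus stands apart from the other lists by its few wide peaks, and whether replicates were separate plantings is not stated in the labels, so that tests measure only the spread between these libraries. A list of 10 known Polycomb targets was touched by a peak in every H3K27me3 library, and 11 housekeeping genes were touched in none of the 8. The mark does not show the ref6-1 mutation itself, and its presence in these libraries was not checked.

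In ref6 the mark lay on a set of genes that were unmarked in WT, while 141 of the 2952 genes marked in both WT libraries had it in neither ref6 library. Marked here means that peaks lie over 50% or more of the gene body. Marked genes numbered 2481 and 4967 in the ref6 libraries, against 3557 and 3176 in the WT libraries, and 1878 genes were marked in all 4. A gene was called gained when it was marked in both ref6 libraries and in neither WT library, and lost in the reverse case. Of 37899 nuclear loci, 425 were gained, which is 1.12%, and 141 were lost, which is 0.372%. Among the 27444 protein-coding genes, 357 were gained (1.3%) and 103 lost (0.375%).

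The gained call was limited by replicate 1 of ref6 and the lost call by replicate 2. In replicate 1, 442 genes were marked that neither WT library marked, and 425 of them were also marked in replicate 2. In replicate 2 the number was 1638. The count of gained genes was therefore 1638 without ref6 replicate 1 and 442 without ref6 replicate 2, and the count of lost genes was 164 without ref6 replicate 1 and 1051 without ref6 replicate 2. Without WT replicate 1 the lost genes numbered 225, and without WT replicate 2 they numbered 335. With every list reduced by score to the same covered length of 5.31 Mb, 281 genes were gained and 351 lost, so the excess of gained over lost genes depends on how much each list covers. Of the 425 gained genes, 220 were among those 281.

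Counted in bases, 94.0% of the bases in the peaks of ref6 replicate 1 also lay in those of replicate 2, and 43.4% the other way. Both ref6 lists and neither WT list covered 0.906 Mb, while both WT lists and neither ref6 list covered 0.388 Mb. The total covered length did not separate the genotypes (mean difference, ref6 minus WT, 1.01 Mb; exact permutation test over libraries, two-sided, p = 1, where the smallest p that 2 against 2 libraries allow is 0.33).

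For most gained genes no peak was called in WT: 257 of the 425 had no covered base in either WT library. Over at least 80% in both ref6 libraries, 125 were covered. The median coverage of the gained genes was 69.3% and 100% in the ref6 libraries, against 0% in both WT libraries. These values follow from the call and carry no test. Of the lost genes, 70 had no covered base in either ref6 library, and the median coverage of all 141 was 0% in both ref6 libraries, against 73.7% and 70.0% in the WT libraries. At the edge of the call, bZIP48 was gained with 50.1% in ref6 replicate 1, and AT3G59845 was not, with 49.9%.

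Across all genes, limma was fitted to the percent of each gene body covered in the 4 libraries. Of 6430 genes tested, 0 were higher and 0 lower in ref6 at an adjusted p of 0.05 (Benjamini-Hochberg; smallest adjusted p 0.0529). Without a test, 1405 of all loci (3.71%) had higher coverage in both ref6 than in both WT libraries, and 828 (2.18%) lower. At an unadjusted p of 0.05, 525 genes were higher (8.16% of those tested) and 336 lower (5.23%). With the brm ref6 and brm libraries in the same fit, 205 genes were higher in ref6 than in WT (3.19%) and 56 lower (0.871%). Among them were 187 of the gained and 35 of the lost genes. That fit has more libraries for the estimate of spread but pools the genotypes. It can thus understate the spread of ref6, whose replicate 2 has wider peaks. The calls use the same coverage values as limma, so this overlap and the p-values of called genes are no separate support. Genes with 0% in both WT libraries entered the fit only through their coverage in ref6. With peaks of a score of at least 100 only, limma called 47 genes higher and 23 lower, and at equal covered length 61 and 37. Genes are therefore named below by their call and their values. Where limma's adjusted p is printed, the one over the 4 libraries comes first, and no gene passed 0.05 there. Where replicates sit together at or near 0% and 100%, that SE and p rest almost wholly on spread estimated from other genes.

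CUC1 (CUP-SHAPED COTYLEDON 1, AT3G15170), a NAC transcription factor that sets organ boundaries, was covered over 98.4% and 100% in the ref6 libraries, against 0% and 0% in the WT libraries. Both ref6 libraries lay far above both WT libraries, and the difference was 99.2 percentage points (SE 4.52; limma adjusted p = 0.0529 over 4 libraries and 0.000773 over 8). The gained region reached from 5109313 to 5111911 on chromosome 3 (TAIR10, counted from 1), with scores of 1059 and 719 in the ref6 lists. CUC1 was the 1 gained gene among 16 of organ boundary and shoot meristem, against 1.12% of all loci. Of the other 15, 9 were marked in all 4 libraries. CUC2, the close relative of CUC1, was covered over 100% in each of the 4, and STM, the homeobox gene that keeps the meristem undifferentiated, over 88.4% and 97.7% in ref6 against 96.7% and 97.6% in WT.

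Among 21 gibberellin genes, 2 were gained and 1 lost, against 1.12% and 0.372% of all loci. GA20OX2 (AT5G51810), an oxidase that makes precursors of active gibberellin, was covered over 91.7% and 100% in the ref6 libraries, against 0% in both WT libraries (difference 95.8 points, SE 5.64; limma adjusted p = 0.0631 over 4 libraries and 0.00218 over 8). GA2OX1 (AT1G78440), an oxidase that inactivates gibberellin, was covered over 70.5% and 100% in ref6, against 0% in both WT libraries (difference 85.2 points, SE 13.3; adjusted p = 0.184 and 0.0208). So a gene of synthesis and a gene of breakdown were both gained. Both carried a REF6-GFP peak with a score of 3100, where 6 of the 21 genes carried a REF6-GFP peak of any score. GA20OX4 (AT1G60980) was the lost gene, with 25.3% and 49.8% in ref6 against 90.5% and 68.2% in WT (adjusted p = 0.443 over 4 libraries).

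Other gibberellin genes were touched by peaks in ref6 alone without reaching the bound in both libraries. GA2OX2, which inactivates gibberellin, had 10.01% and 78.55% in the ref6 libraries, and GA20OX1, which makes its precursors, 17.3% and 38.4%, against 0% for both genes in both WT libraries. Counting any overlap, 847 genes were touched in both ref6 libraries and in no WT library, which is 2.23% of all loci, and 4 of the 21 gibberellin genes were among them. In the reverse direction there were 486 (1.28%), with 0 gibberellin genes.

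Among genes of other hormones, peaks over part of the body were found in both directions. Of 23 auxin genes 2 were touched in both ref6 and no WT library (YUC3 and the auxin influx carrier gene AUX1) and 3 in the reverse case (the synthesis genes YUC9 and TAA1 and the transporter gene PIN8). Of 12 brassinosteroid genes 3 were touched in ref6 alone (DWF4, BR6OX1 and TCH4) and 1 in WT alone (SOB7, a P450 that inactivates brassinosteroids), and of 12 abscisic acid genes 1 and 0. The shares over all loci are the 2.23% and 1.28% given above. YUC3, a flavin monooxygenase of auxin synthesis, was covered over 49.3% and 61.9% in ref6, against 0% in both WT libraries (adjusted p = 0.152 over 4 libraries and 0.0210 over 8). DWF4, a hydroxylase of brassinosteroid synthesis, was covered over 47.7% and 62.2% in ref6 and CYP707A1, which breaks down abscisic acid, over 43.8% and 53.5%, again with 0% in both WT libraries. TCH4, a xyloglucan-modifying enzyme, had 23.6% and 67.2% in ref6 and BR6OX1, an oxidase late in brassinosteroid synthesis, 18.4% and 31.1%, with 0% in both WT libraries. Adjusted p-values over 4 libraries were 0.165 for DWF4, 0.149 for CYP707A1, 0.532 for TCH4 and 0.348 for BR6OX1. The WT libraries lay at 0 for these 5 genes, and each carried a REF6-GFP peak, with scores of 3100 at YUC3, CYP707A1 and BR6OX1. The same score of 3100 was found at YUC7 and NCED3 of these lists, which had 0% in both ref6 and both WT libraries. A REF6-GFP peak lay at 10 of the 23 auxin, 7 of the 12 brassinosteroid and 5 of the 12 abscisic acid genes. Of the genes touched in WT alone, PIN8 had 0% in both ref6 libraries against 56.6% and 34.1% in WT (adjusted p = 0.279 over 4 libraries), and YUC9, TAA1 and SOB7 had 0% in ref6 and between 5.51% and 14.0% in WT.

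**Figure D1:**
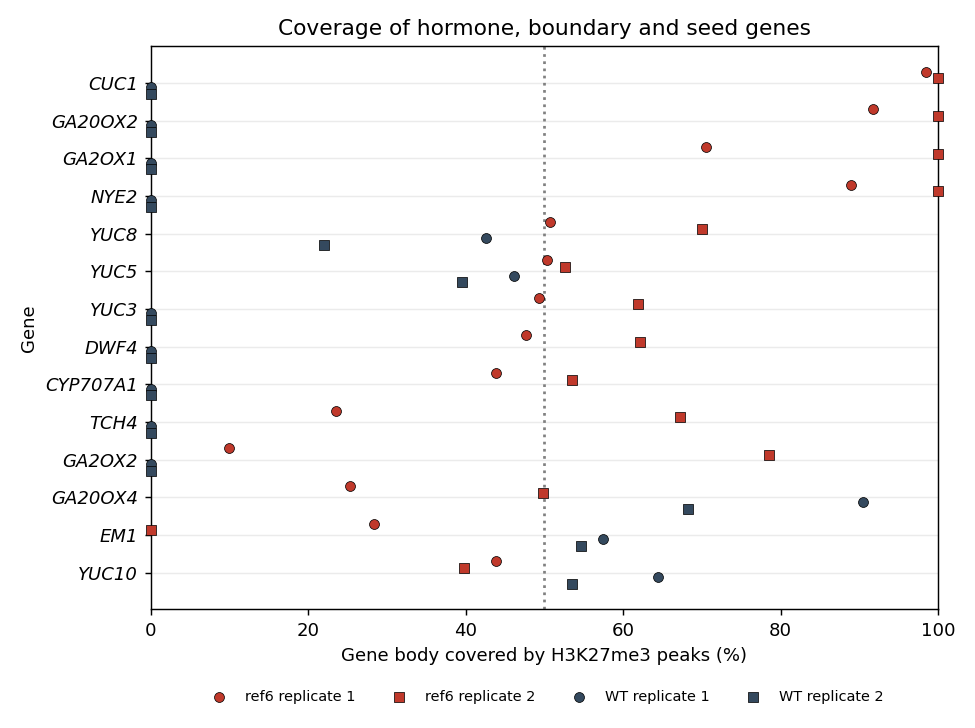
Percent of the gene body covered by H3K27me3 peaks (horizontal axis) for 14 genes of the hormone, boundary, senescence and seed lists, 1 point per library; ref6 in red above WT in dark blue, circles for replicate 1 and squares for replicate 2, with the 50% bound dotted. CUC1, GA20OX2, GA2OX1 and NYE2 lie between 70.5% and 100% in ref6 and at 0% in WT. YUC8 and YUC5 pass the bound in ref6, with WT at 42.6% and 22.0% for YUC8 and at 46.2% and 39.5% for YUC5.

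In the auxin list each called gene lay close to the bound in at least 1 library. Of its 23 genes, 2 were gained and 1 was lost, against 1.12% and 0.372% of all loci, and 4 were marked in all 4 libraries. YUC8 had 50.7% and 70.0% in ref6, against 42.6% and 22.0% in WT, and YUC5 had 50.3% and 52.7% in ref6, against 46.2% and 39.5% in WT. YUC10 was lost with 43.8% and 39.8% in ref6, against 64.4% and 53.5% in WT. These 3 differences had adjusted p-values of 0.568, 0.723 and 0.480 by limma over 4 libraries, and those of YUC5 and YUC10 turned their sign when only peaks with a score of at least 100 were used, as did that of YUC10 at equal covered length.

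In the list of leaf senescence and chlorophyll breakdown, 1 of 13 genes was gained, against 1.12% of all loci. It was NYE2 (NON-YELLOWING 2, AT4G11910), which belongs to the STAY-GREEN family of chlorophyll breakdown, with 88.9% and 100% in ref6 against 0% in both WT libraries (difference 94.4 points, SE 6.41; limma adjusted p = 0.0846 over 4 libraries and 0.00368 over 8). The other 12 genes of that list were not called in either direction.

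With 1.12% of all loci gained and 0.372% lost, lists of this length hold few calls or none. Of 15 floral identity genes 0 were gained and 0 lost, and 9 were marked in all 4 libraries; AG, the MADS-box gene of stamens and carpels, was covered over 92.9% and 100% in ref6, against 100% and 97.8% in WT, and carried a REF6-GFP peak with a score of 1225. Among 15 flowering time genes 0 were gained and 0 lost, but some differed without meeting the call. SOC1 had 0% and 22.3% in ref6, against 56.4% and 47.5% in WT. It was not called lost because WT replicate 2 lay under the bound. In brm ref6 it had 0% in both libraries, against 51.1% and 60.4% in brm. MAF4 went the other way, with 47.8% and 98.9% in ref6 against 32.9% and 23.2% in WT. Both differences were not tested. The floral repressor FLC was covered over 78.8% and 100% in ref6, against 96.9% and 94.96% in WT, and FT, which encodes a mobile signal for flowering, over 27.6% and 65.6% in ref6, against 53.5% and 44.1% in WT, so the WT values of FT lay between those of ref6. The lists of light signalling (14 genes), phase change (20), brassinosteroid (12), abscisic acid (12), Polycomb subunits and H3K27 demethylases (14) and housekeeping (11) held 0 gained and 0 lost genes. Of 10 seed maturation genes 1 was lost: EM1, a late embryogenesis protein, with 28.4% and 0% in ref6 against 57.5% and 54.6% in WT (adjusted p = 0.383 over 4 libraries).

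Calls in transcription factor families were counted by gene symbol. Of 79 NAC genes, 7 were gained (8.86%) and 1 lost, and of 78 AGAMOUS-like MADS-box genes 6 were gained (7.69%) and 0 lost, against 1.3% and 0.375% of protein-coding genes. NAC003, NAC004 and NAC005 lie next to each other on chromosome 1 and were covered over 73.4%, 59.7% and 52.6% in ref6 replicate 1 and over 79.9%, 96.6% and 100% in replicate 2, with 0% in both WT libraries (adjusted p = 0.0803, 0.244 and 0.337 over 4 libraries). NAC080, whose REF6-GFP peak had a score of 3100, was covered over 64.97% and 100% in ref6 against 0% in both WT libraries (limma adjusted p = 0.221 over 4 libraries and 0.0384 over 8). NAC046 was the lost member, with 0% and 39.1% in ref6 against 87.7% and 71.9% in WT (adjusted p = 0.383 over 4 libraries and 0.211 over 8).

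Of the 6 gained MADS-box genes, AGL15, known for its role in embryos, was covered over 82.6% and 100% in ref6, against 0% and 12.4% in WT, without a REF6-GFP peak (adjusted p = 0.148 over 4 libraries and 0.0119 over 8). AGL39, AGL77, AGL89 and AGL98 had 0% in both WT libraries and between 56.5% and 100% in the ref6 libraries. Each of the 4 carried a REF6-GFP peak, where 20 of the 78 genes of the family carried one. AGL58 was gained with 53.7% and 100% in ref6, against 45.9% and 42.2% in WT, which is again close to the bound.

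Of 67 WRKY genes, 1 was gained and 3 were lost, against 1.3% and 0.375% of protein-coding genes. WRKY43 (AT2G46130) was covered over 100% in both ref6 libraries, against 0% in both WT libraries (difference 100 points, SE 4.47; limma adjusted p = 0.0529 over 4 libraries and 0.00549 over 8). Its replicates did not differ within either genotype, so the SE over 4 libraries measures no spread of WRKY43 itself. WRKY6, a regulator of senescence and phosphate responses, was lost with 23.1% and 47.2% in ref6 against 59.6% and 59.1% in WT, and WRKY57 with 16.8% and 40.1% in ref6 against 56.4% and 59.6% in WT. Adjusted p-values of the lost WRKY6, WRKY57 and WRKY58 were 0.576, 0.462 and 0.593 over 4 libraries and 0.502, 0.395 and 0.548 over 8. Single members were called in 3 further families: the ethylene response factor ERF1 was gained (71.0% and 83.0% in ref6 against 0% in both WT libraries; adjusted p = 0.118 over 4 libraries and 0.00564 over 8), as was the lateral organ boundary domain gene LBD19 (100% and 100% in ref6 against 0% and 17.2% in WT; adjusted p = 0.122 over 4 libraries and 0.0706 over 8). TCP16 was lost, with 0% in both ref6 libraries against 94.2% and 83.5% in WT (adjusted p = 0.0884 over 4 libraries and 0.0208 over 8). Of 120 MYB genes, 0 were gained and 0 lost, although 27 of them were marked in all 4 libraries, and the same held for 48 homeobox genes with 11 marked in all 4.

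Expansins and XTH enzymes act in cell wall loosening. Of 60 expansin and XTH genes, 5 were gained (8.33%) and 0 lost, against 1.3% and 0.375% of protein-coding genes. All 5 carried a REF6-GFP peak, where 26 of the 60 genes carried one. EXPA16 (AT3G55500), an expansin, was covered over 94.5% and 100% in ref6, against 0% in both WT libraries (difference 97.3 points, SE 5.03; limma adjusted p = 0.0529 over 4 libraries and 0.000989 over 8). The xyloglucan endotransglucosylase genes XTH12, XTH13 and XTH25 lie side by side on chromosome 5 and were covered over 81.4%, 100% and 91.6% in ref6 replicate 1, over 100% each in replicate 2 and over 0% each in both WT libraries. A single gained region of 6739 bp, from 23300146 to 23306884, spans the 3 genes and AT5G57535 between them, so that 3 of the 5 gained genes of the family are not separate gains. Its highest score was 996 in ref6 replicate 1 and 1459 in replicate 2. Genes of the same family resemble each other in sequence, and how reads that match several copies were treated is not given in the sources used here.

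Enzymes of detoxification and secondary metabolism were gained in small numbers. Of 39 glutathione transferase genes, 3 were gained (7.69%) and 0 lost, against 1.3% and 0.375% of protein-coding genes. All 3 carried a REF6-GFP peak, where 13 of the 39 genes carried one. GSTF7 was covered over 81.8% and 100% in ref6 and GSTF5 over 90.0% and 100%, against 0% for both in both WT libraries (limma adjusted p = 0.128 and 0.0771 over 4 libraries). The gained region over GSTF7 also takes in GSTF6, from 658575 to 662284 on chromosome 1. Cytochrome P450 genes had 8 gained (3.39%) and 2 lost of 236, beside the same shares over protein-coding genes. Among them CYP71B16 and CYP71B17 are neighbours on chromosome 3, and CYP71B17 had 96.1% and 100% in ref6, against 0% in both WT libraries (difference 98.0 points, SE 4.76; adjusted p = 0.0529 over 4 libraries and 0.00431 over 8). CYP716A1, by contrast, was lost and carried a REF6-GFP peak with a score of 671, with 35.8% and 44.8% in ref6 against 76.1% and 78.3% in WT (adjusted p = 0.184 over 4 libraries and 0.127 over 8).

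Other enzyme, transporter and signal families held 0 to 2 calls in each direction, where 1.3% of protein-coding genes were gained and 0.375% lost. Of 58 UGT glycosyltransferase genes 2 were gained and 1 lost, of 14 laccase genes 1 was gained and 1 lost, of 22 plant U-box genes 1 was gained, of 30 CLE peptide genes 1 was lost and of 45 UMAMIT transporter genes 1 was lost. Of 40 genes of the CRK family of cysteine-rich receptor-like kinases, 2 were gained, and 9 were touched in both ref6 libraries and no WT library, against 2.23% of all loci; 30 of the 40 carried a REF6-GFP peak. CRK20 had 54.7% and 61.0% in ref6 and CRK23 55.6% and 100%, against 0% for both in both WT libraries. Of the glutathione transferase genes 8 of 39 were touched in ref6 alone in this way, and of the P450 genes 15. The 47 IAA and ARF genes, 16 SAUR, 16 SPL, 34 RALF-like, 81 LCR, 16 heat shock factor and 18 TPS genes, a symbol shared by terpene and trehalose-phosphate synthases, held 0 gained and 0 lost genes. Of 25 ERF, 35 LBD and 17 TCP genes, ERF1, LBD19 and TCP16 were the members called.

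Among 326 microRNA genes, 2 were gained (0.613%) and 4 lost (1.23%), against 1.12% and 0.372% of all loci. MIR166a, a precursor of the miR166 family that acts on HD-ZIP III genes, was covered over 60% and 100% in ref6, against 0% in both WT libraries, and over 100% in each of the 4 brm ref6 and brm libraries. MIR164c, a precursor of the family that acts on CUC1 and CUC2, was lost, with 0% in both ref6 libraries against 100% and 52.0% in WT. In brm ref6 it had 0% and 100% and in brm 100% and 100%. These genes are short, so that a single peak edge can decide their coverage.

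From the protein-coding gained genes with no coverage in either WT library, the 12 with the highest authors' score were taken. The score used was the lower of both ref6 lists. They were led by AT5G56810 and AT5G56820, which lie under 1 gained region of 5977 bp on chromosome 5 with scores of 2544 and 1647. Both genes were covered over 99.2% to 100% in ref6 and over 0% in WT. PUB54, a plant U-box gene, came next among genes with a symbol, with 83.3% and 98.7% in ref6 against 0% in both WT libraries, and it had neither a REF6-GFP nor a BRM-GFP peak. The other symbols among the 12 were XTH13 and XTH25. FH8, a formin gene, and GA20OX2 and CUC1 were among the 8 gained regions with the highest scores. From the protein-coding lost genes, the 10 with the lowest mean ref6 coverage were taken, with ties ordered by the lower WT score. Among these, AT2G22340 had 0% in both ref6 libraries against 95.2% and 97.4% in WT, and AT2G04420 had 0% in both against 99.1% and 93.8%. All 10 had 0% in ref6, which follows from this choice. None of them carried a REF6-GFP peak, where 6.38% of all 141 lost genes did, so this is no trait of the 10. Lost regions with high WT scores also lay on TBL42 (446 and 473), a gene of the TRICHOME BIREFRINGENCE-LIKE family, and BLH5 (448 and 358), a BEL1-like homeodomain gene.

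Some gained genes lay side by side. Of the 357 gained protein-coding genes, 94 (26.3%) formed 40 runs of neighbours, 12 of them with 3 or more genes, and the longest runs had 4. The lost genes had 9 of 103 members (8.74%) in 4 runs. A longer list holds more neighbours by its number alone, so the shares of the gained and lost genes are not compared, and neighbours under the same peak are not independent gains.

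REF6 occupancy, which the call did not use, was counted with the first REF6-GFP library, whose list held 5413 peaks. A REF6-GFP peak lay on the gene or within 1000 bp for 274 of the 425 gained genes, which is 64.5% (95% exact Clopper-Pearson interval 59.7 to 69.0, counting error only), against 26.7% (26.2 to 27.2) of the other genes unmarked in both WT libraries. Among gained genes with no WT coverage the share was 74.3% (68.5 to 79.5). Lost genes had 6.38% (2.96 to 11.8), against 9.36% (8.30 to 10.5) of the other genes marked in both WT libraries. With the REF6-GFP regions found in both later libraries, a shorter map, the shares were 23.3% of the gained and 6.40% of the other WT-unmarked genes. Of the 1213 genes marked in ref6 replicate 2 alone of the 4 libraries, 40.6% carried a REF6-GFP peak. Thus the genes marked by that library alone held a share between those of the gained and of the other unmarked genes. The counting intervals treat genes as independent, which neighbours under the same peak are not.

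Against the other genes unmarked in WT, BRM-GFP went the opposite way. A BRM-GFP peak lay at 21.9% of the gained genes (18.0 to 26.1), against 40.5% (40.0 to 41.0) of those others. Low shares were not particular to the gained genes. They were 27.7% for the lost genes and 17.2% for the other genes marked in both WT libraries. For genes marked in all 4 libraries the share was 15.5%. Split by both proteins, 4.67% of the 3622 protein-coding genes with REF6-GFP and no BRM-GFP were gained, 1.398% of the 4650 with both, 0.228% of the 7455 with BRM-GFP alone and 0.905% of the 11717 with neither. The lost genes were 0.0552%, 0.0860%, 0.335% and 0.614% of the same classes. The order of the 4 classes was the same in each ref6 library taken alone. Genes marked in that library and in neither WT library made up 4.72% (replicate 1) and 11.4% (replicate 2) of the class with REF6-GFP alone, and 0.228% and 2.05% of the class with BRM-GFP alone.

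**Figure D2:**
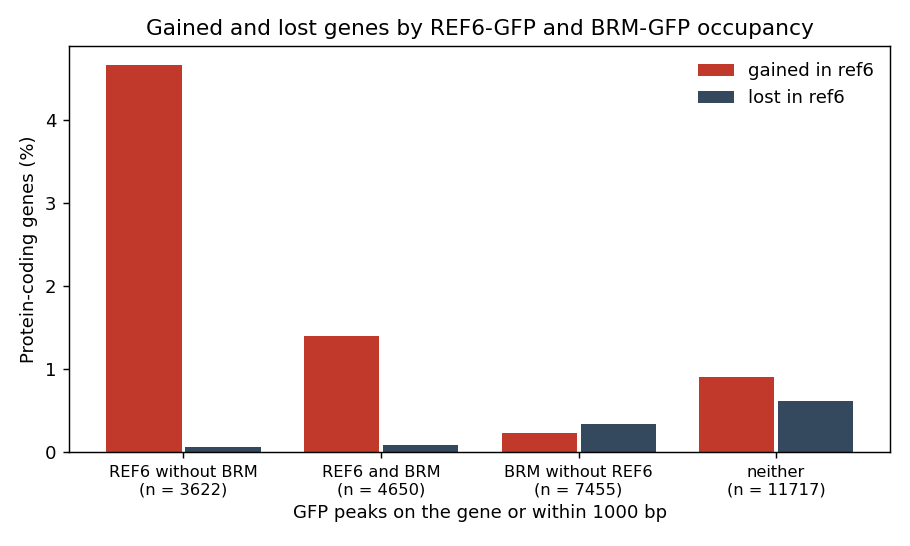
Percent of protein-coding genes gained (red) and lost (dark blue) in ref6 against WT, in 4 classes by REF6-GFP and BRM-GFP peaks on the gene or within 1000 bp; each bar is 1 percentage over the n genes given under it, with no error. The class with REF6-GFP and no BRM-GFP has the highest gained bar, 4.67%, and the lowest lost bar, 0.0552%.

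The gained share also went with the score of the REF6-GFP peak. In 4 equal groups from the lowest to the highest score, 1.45%, 2.27%, 2.66% and 4.94% of protein-coding genes with a REF6-GFP peak were gained, against 0.642% of those without one. For ref6 replicate 1 alone the newly marked shares were 1.498%, 2.27%, 2.71% and 4.94%, and for replicate 2 alone 4.74%, 6.77%, 8.22% and 12.6%. Genes of the highest group were the least often marked in WT, with 2.47% and 2.27% in the WT libraries, against 7.31% and 15.2% in the ref6 libraries.

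Taken at the REF6-GFP peaks themselves, 15.6% and 17.6% of the 5413 peaks were overlapped by H3K27me3 in the ref6 libraries, against 4.23% and 3.88% in the WT libraries. Here the 2 ref6 libraries were close to each other in spite of their different peak widths, and both lay above both WT libraries (difference 12.5 points; exact permutation test, two-sided, p = 0.33, the smallest that 2 against 2 libraries allow). The shares grew with the score of the REF6-GFP peak in ref6, from 11.4% and 13.6% in the lowest to 22.5% and 24.0% in the highest score group, while in WT they were 5.02% and 4.43% in the lowest and 2.44% and 2.44% in the highest. At equal covered length the share was 15.6% and 4.95% in ref6, against 1.74% and 2.03% in WT, so the closeness of the ref6 libraries did not hold there. At the 12230 BRM-GFP peaks the shares were 2.36% and 5.11% in ref6 and 2.78% and 2.40% in WT, and the groups overlapped.

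**Figure D3:**
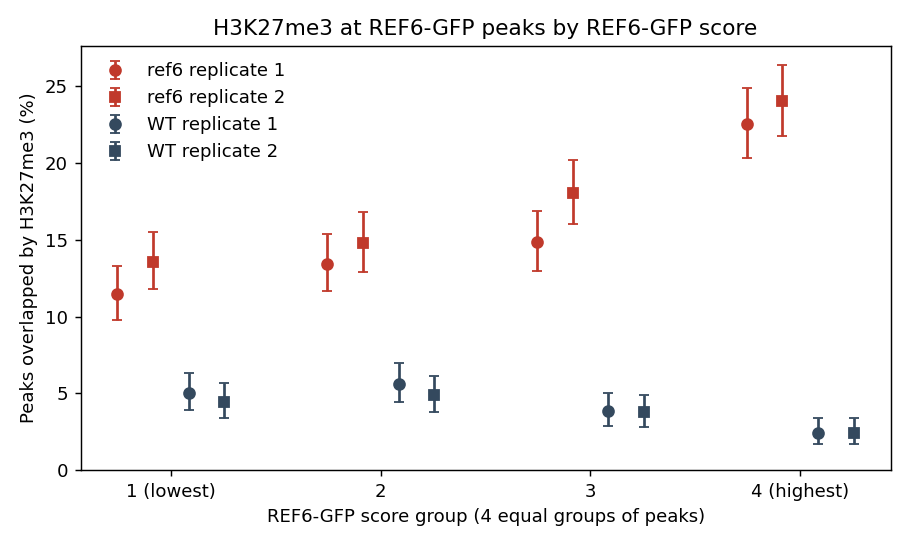
Percent of REF6-GFP peaks overlapped by an H3K27me3 peak (vertical axis) in 4 equal groups of REF6-GFP score from lowest to highest; 1 point per library, ref6 in red left of WT in dark blue, bars are 95% exact Clopper-Pearson intervals for counting error. The ref6 points reach 22.5% and 24.0% in the highest group, where both WT points are at 2.44%.

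Around the REF6-GFP peaks the mark in WT had a dip and in ref6 a peak. At the midpoint, 6.82% and 11.9% of sites lay in an H3K27me3 peak in the ref6 libraries, against 1.31% and 1.24% in the WT libraries. At 1000 bp from the midpoint (mean of both sides) the values were 4.39% and 9.71% in ref6, against 2.87% and 2.45% in WT. At 5000 bp they were 5.28% and 10.98% in ref6, against 6.97% and 6.11% in WT. So the ref6 replicate 1 values lay above both WT libraries out to 1750 bp and below both from 3000 bp on, whereas replicate 2 lay above them at every distance shown.

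**Figure D4:**
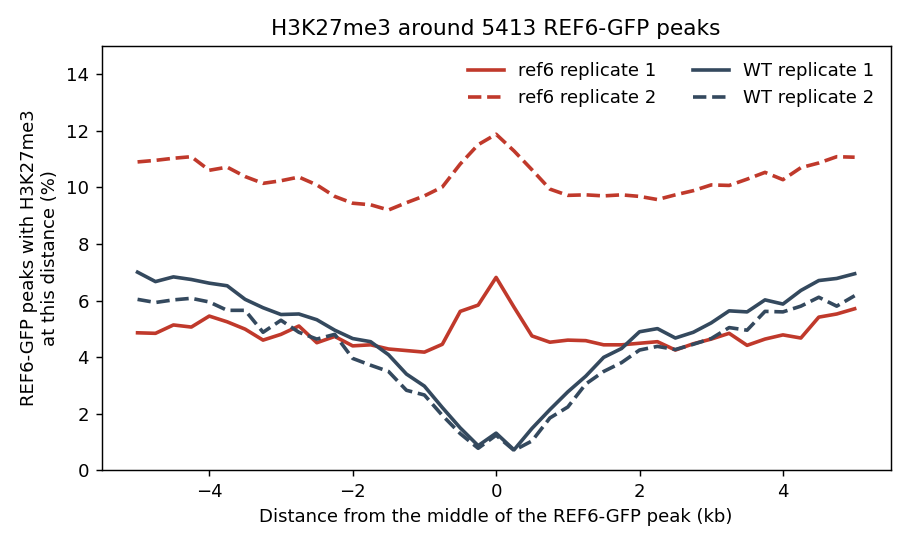
Percent of REF6-GFP peaks with an H3K27me3 peak at each distance from the peak's middle (horizontal axis in kb, steps of 250 bp); ref6 in red, WT in dark blue, solid lines for replicate 1 and dashed for replicate 2. Both WT lines dip around the middle, with 1.31% and 1.24% there, while the ref6 lines reach 6.82% and 11.9%.

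The double mutant gave libraries in which the calls could be looked at again. The 425 gained genes had median coverages of 93.6% and 72.5% in the brm ref6 libraries, against 0% in both brm libraries. Both brm ref6 libraries lay above both brm libraries for 83.5% of the gained genes, against 3.68% of all loci, and the median difference per gene was 65.01 points. By the same call, 58.8% of the gained genes were also gained in brm ref6 against brm, where 1.11% of all loci were. Of gained genes with a REF6-GFP peak 93.1% lay higher in both brm ref6 libraries than in both brm libraries, and of those without one 66.2%.

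Without ref6 replicate 1 the median difference per gene was 22.6 points, over 1638 genes that include those marked in ref6 replicate 2 alone. The genes marked in ref6 replicate 2 alone had median coverages of 54.6% and 28.4% in brm ref6, against 28.5% and 12.7% in brm. These genes were thus partly covered in the brm libraries too.

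Lost genes kept part of their difference in the second pair of genotypes. Their median coverage was 41.9% and 16.8% in brm ref6, against 86.0% and 80.8% in brm. Both brm ref6 libraries lay below both brm libraries for 73.0% of lost genes, against 7.36% of all loci and 37.2% of the other genes marked in both WT libraries, and the median difference was −46.5 points. By the call itself, 39.0% were lost again, against 1.5% of all loci. TCP16 had 90.4% and 61.2% in brm ref6 against 100% and 100% in brm, so it was lower in both libraries but stayed marked.

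**Figure D5:**
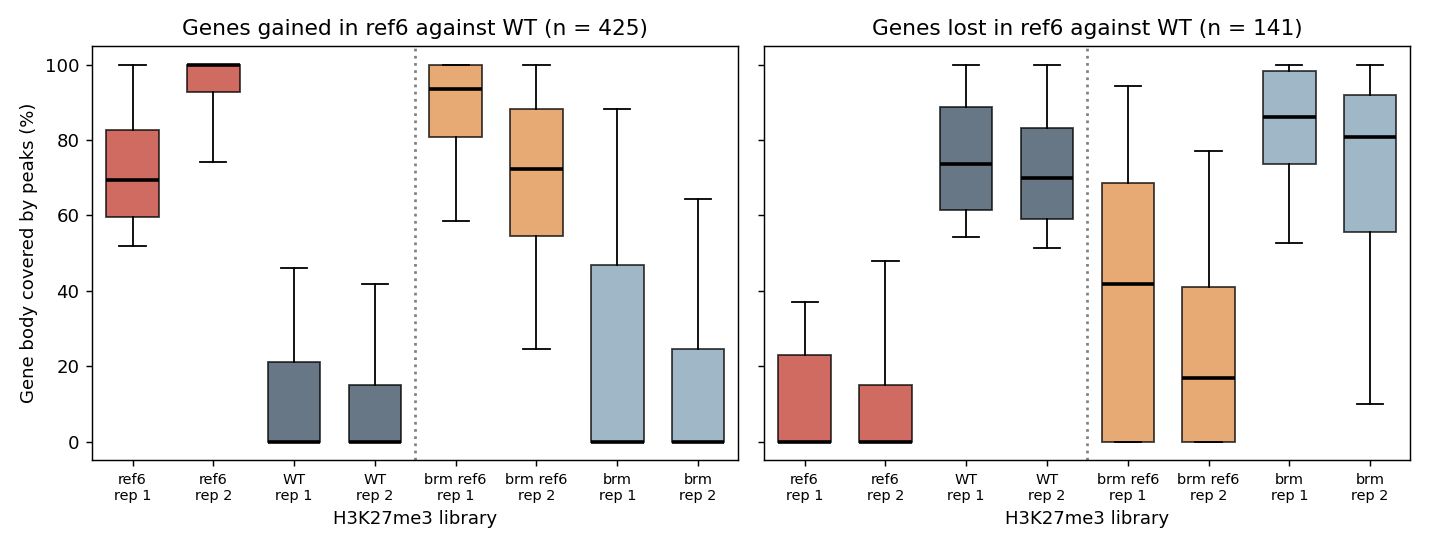
Percent of the gene body covered by H3K27me3 peaks for the 425 gained genes (left) and 141 lost genes (right) in 8 libraries, mutants with ref6-1 left of their partner genotype; boxes show quartiles and median, whiskers the 5th and 95th percentiles. Left of the dotted line are the libraries that made the call and right of it those that did not; there the gained genes have medians of 93.6% and 72.5% in brm ref6 and of 0% in both brm libraries.

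Gained and lost merged regions differed in size and place. Unlike the gene calls of the full lists, more regions were lost than gained. Peaks of the 4 lists formed 9364 regions, of which 660 (7.05%) were overlapped in both ref6 lists and no WT list, 865 (9.24%) in both WT lists and no ref6 list, and 3517 in all 4. Gained regions were long, with a median width of 1383 bp and 1.07 Mb in all, and lost regions short, with 472 bp and 0.459 Mb. The broad peaks of ref6 replicate 2 set the width of gained regions: they covered 1.06 Mb of them and the peaks of replicate 1 0.439 Mb. Counts of regions also moved with single libraries. Gained regions numbered 1023 without ref6 replicate 1 and 2672 without ref6 replicate 2, and lost regions 2167 without WT replicate 1, 2218 without WT replicate 2 and 1852 without ref6 replicate 2. At equal covered length there were 123 gained and 159 lost regions.

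A REF6-GFP peak overlapped 61.7% of gained regions (57.8 to 65.4), 1.04% of lost regions (0.477 to 1.97) and 9.61% of those in all 4 lists (8.66 to 10.6). Of the gained regions, 45.6% lay more than 5000 bp from the nearest WT peak and 6.06% within 500 bp of one. The body of a protein-coding gene was overlapped by 89.5% of gained and 61.0% of lost regions, which also differ in width. In the second pair of genotypes, 94.4% and 83.5% of gained regions were overlapped by a peak in the brm ref6 libraries, against 22.0% and 15% in the brm libraries. Lost regions were overlapped in 47.5% and 28.9% of cases in brm ref6, against 87.7% and 81.4% in brm.

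By gene length, the gained share of protein-coding genes was 1.29% for genes of up to 500 bp, 2.17% up to 1000 bp, 2.17% up to 2000 bp, 0.760% up to 4000 bp and 0.0308% above. Genes marked in WT had a like order, with 11.7%, 20.4%, 15.3%, 6.52% and 2.40% in WT replicate 1. A call that needs a share of the body covered is harder for a long gene to meet, and a short peak within a long gene is not counted by it. Across the 5 chromosomes the gained share ran from 0.927% (chromosome 2) to 1.56% (chromosome 4). In gene-poor windows, those of 500 kb with under 50 protein-coding genes, 1 of 766 genes was gained (0.131%) and 2.61% and 6.01% were marked in the ref6 libraries, against 3.79% and 3.26% in WT.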

How the data were processed

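H3K27me3 immunoprecipitates of 14-day-old seedlings were sequenced. Alignment to TAIR10 with Bowtie2 2.2.5 and peak calling with MACS 1.4 are recorded per the submitters' processing notes. Each list belongs to 1 library. The score deposited by the authors equals −10 log10 of the p-value, is at least 50 in every list, and was used only to rank, filter and describe peaks. Which input and options were used in calling is not given in the sources used here. Nothing was computed from 10 input samples and 5 further GFP lists. No read depth is given, so a missing peak is not proof of absence.

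Overlapping peaks were merged per library and the percent of each gene body covered was computed (Python 3.11.15, pandas 2.3.3, numpy 2.4.6). Genes came from a RefSeq table of TAIR10.1, so no gene coordinates are printed; 61.8% of the bases of WT replicate 1 lay on protein-coding bodies, and 45.1% and 44.6% after shifts of 1000 bp either way. Differences in coverage were tested with limma 3.58.1 in R 4.3.3 (robust empirical Bayes, two-sided, Benjamini-Hochberg at 0.05, genes covered in at least 2 libraries). The code was tried on simulated data with the same spread in every gene and library, which the real libraries do not have. That run checks the code and does not measure the power of the fit here. Exact permutation tests over libraries used scipy 1.17.1.

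The members and the 13 lists and 25 families were chosen with earlier results of these data known. Named genes are list and family members called gained or lost or touched in 1 genotype alone, and well-known Polycomb targets. Also named are the 12 protein-coding gained genes without WT coverage that had the highest scores. The 10 protein-coding lost genes with the lowest ref6 coverage, ties by score, and the 8 regions each way with the highest scores complete them. Families were matched by symbol prefix and number, more narrowly than planned, to keep other families out. Of 201 list entries 5 matched no locus. CUC2, CUC3, STM, AG, FLC, FT, SOC1, MAF4, YUC7 and NCED3 were named after their values were seen, as were the edge genes. Alternatives were a score of at least 100, equal covered length, any overlap or 80% of the gene, other ways to merge regions, the later REF6-GFP lists, 8 libraries, an arcsine scale, protein-coding genes only, a replicate block and leaving out each library.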

Additional observations from a re-analysis of the deposited data

How the results depend on the processing

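With a score of at least 100, asked of the REF6-GFP list too, 57.0% of gained genes had a REF6-GFP peak. The share of the other WT-unmarked genes was 20.7%. Limma then called 47 genes higher and 23 lower. At equal covered length there were 281 gained and 351 lost genes, 123 gained and 159 lost regions, 56.2% of gained genes with a REF6-GFP peak (26.6% of the other WT-unmarked genes), and 61 genes higher and 37 lower by limma; the covered length is equal there by construction. Any overlap gave 847 gained and 486 lost genes, 69.5% with a REF6-GFP peak and a median brm ref6 minus brm difference of 48.0 points, and a bound of 80% gave 171 and 58 genes and 57.3%. Regions covered over at least 50% gave 358 gained regions, the later REF6-GFP lists 23.3% of gained genes, and all 8 libraries 205 genes higher and 56 lower. Leaving out 1 library gave 442 to 1638 gained genes, 164 to 1051 lost genes, 744 to 2672 gained regions, 1125 to 2218 lost regions, 46.8% to 63.1% of gained genes with a REF6-GFP peak, 22.6 to 64.1 points in the double mutant contrast, 11.5 to 13.6 points at REF6-GFP peaks and −2.09 to 4.11 Mb in covered length, negative without ref6 replicate 2. Limma then called 0 to 3 genes higher and 0 to 158 lower. The difference of YUC10 turned to 6.82 points with a score of at least 100 and to 4.53 at equal covered length, and that of YUC5 to −14.3 with a score of at least 100. The causes were not tested. For the 96 named genes, the other differences kept their sign in each alternative compared in which the gene was fitted. Many genes fell below the filter on coverage there. Without ref6 replicate 1 only 48 were fitted, and without WT replicate 1 77. At equal covered length WRKY43, ERF1 and TCP16 were among those not fitted. An adjusted p of 0.05, not passed in the main fit, was passed by 49 genes over 8 libraries. With a score of at least 100 it was passed by 16, and at equal covered length by 18.

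With the replicate number as a block, limma called 0 genes higher and 0 lower; replicate differences of ref6 and WT correlated at −0.0742, so the numbers are not taken to pair the libraries. A fit without the filter on coverage could not be fitted. The share of REF6-GFP peaks with H3K27me3 stayed higher in ref6 under each alternative run. The lists hold no reads, so peak width, depth and antibody efficiency cannot be told apart in any count, and 2 libraries per genotype allow no permutation p below 0.33.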

Other observations

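FLC, the floral repressor that is called in neither direction between ref6 and WT, differed more in the second pair of genotypes. It was covered over 33.5% and 50.1% in the brm ref6 libraries, against 96.7% and 94.8% in the brm libraries, while ref6 had 78.8% and 100%, against 96.9% and 94.96% in WT. CUC3, a relative of CUC1 and CUC2, had 80.04% and 33.7% in brm ref6, against 30.4% and 22.6% in brm, and 31.2% and 45.8% in ref6, against 33.1% and 22.6% in WT. Both genes were singled out after their values were seen, and the differences were not tested.

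The 425 gained genes differed by REF6-GFP in their coverage in the brm libraries. The 151 without a REF6-GFP peak had medians of 93.3% and 68.8% in brm ref6, against 39.8% and 12.7% in brm. The 274 with a REF6-GFP peak had medians of 93.8% and 73.6% in brm ref6, against 0% in both brm libraries. Upper quartiles in the WT libraries were 35.8% and 27.3% for the genes without a REF6-GFP peak and 9.35% and 0% for those with one. The difference between the sets was not tested.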
